A study of Mus musculus with 100 samples.

Results

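The loci of 8 genes of cholesterol synthesis and its control were followed by chromatin immunoprecipitation sequencing (ChIP-seq) in mouse bone marrow-derived macrophages (BMDMs). Of these genes, 6 encode enzymes of the pathway (Hmgcs1, Idi1, Fdft1, Sqle, Lss and Cyp51), Srebf2 encodes the transcription factor SREBP2, and Insig1 encodes a protein that holds SREBP2 back in the endoplasmic reticulum. A region was taken as part of a locus when the deposited tables gave that gene as the one with the nearest transcription start site. This gave 180 regions of 610301 in 15 tables, at 8 of 18524 genes, and 174 of the 180 held enough tags to be tested. Regions of different tables were matched to a common site when their centres lay at most 500 bp apart, which gave 31 sites. Each table held 2 to 17 of the regions. None of the 8 genes acts in cholesterol uptake.

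Cholesterol is built from acetyl-CoA by way of mevalonate, isoprenoid diphosphates, squalene and lanosterol. When sterols are scarce, SREBP2 is carried by SCAP to the Golgi, cut, and sent to the nucleus, where it turns on genes of synthesis and uptake. When sterols are plentiful, INSIG proteins keep SCAP and SREBP2 in the endoplasmic reticulum. In macrophages, which take up much cholesterol from lipoproteins and dead cells, sterol metabolism is known to change on activation of Toll-like receptors.

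All mice were C57BL/6, and every group had 2 libraries. Wild type (WT) BMDMs received vehicle (Veh) or the TLR4 agonist Kdo2 lipid A (KLA) for 6 h, and the Veh cells of the p300 experiment are labelled as 0 h of KLA. The proteins immunoprecipitated from these cells were the corepressor NCoR and its partner HDAC3 (a deacetylase), p300 (an acetyltransferase), PGC1β (a coactivator), the kinase ERK1, and the transcription factors p65 (of NFκB), Fosl2 (of AP-1) and PU.1 (of the macrophage lineage). NCoR was also profiled in WT BMDMs with an ERK inhibitor (ERKi) and KLA, and PGC1β with the solvent DMSO and Veh, with DMSO and KLA, or with ERKi and KLA. The histone mark H3K27ac, found at promoters and enhancers in use, was profiled in 3 sets of BMDMs. All cells of the NCoR set carried NCoR flox/flox alleles, without Cre (labelled WT) or with LysMCre (NKO), each given Veh or KLA. In the RGFP966 set, WT BMDMs were given DMSO and Veh, DMSO and KLA, or the HDAC3 inhibitor RGFP966 and KLA. In the PGC1b set, all BMDMs carried PGC1b flox/flox alleles, without or with LysMCre, and were given Veh or KLA. The LysM promoter drives Cre in myeloid cells. ERK1 and p300 were also profiled in bone marrow cells labelled wild type at day 0 and day 4 of osteoclast differentiation. The descriptions of these ERK1 libraries name NCoR WT, except that of day 4 replicate 2. Those of the p300 libraries name no NCoR genotype. The labels call the samples biological replicates and do not tie them to animals, so that p-values measure only the spread between these samples.

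The 70 libraries with count columns held 4.30 to 21.5 M tags, of which 2.79% to 52.8% lay in the listed regions, and the 30 input samples were not analysed here. Replicates correlated at 0.484 to 0.978 (Pearson's r of log2 values over regions), and no pair agreed within sampling noise. Values are tags per 10 M of the library total. As a check of the cell type, the promoters of 6 of 6 macrophage markers held an H3K27ac region in the RGFP966 and PGC1b sets and 4 of 6 in the NCoR set. None of the 3 markers each of T cells, B cells, neutrophils, fibroblasts and hepatocytes did in any of the sets, and of 6 osteoclast markers 1, 1 and 2 did in the RGFP966, PGC1b and NCoR sets. At the promoter of the osteoclast gene Acp5, p300 stood at 9.67 and 8.52 on day 0 and at 90.9 and 82.8 on day 4. It also rose at Ctsk and Ocstamp, and Calcr, Dcstamp and Nfatc1 had no promoter region of p300. Among macrophage promoters p300 rose at Csf1r (23.7 and 27.7 to 91.9 and 54.4), Spi1 (12.3 and 0 to 47.9 and 44.2) and Adgre1. At Cd68 and Itgam the days overlapped, and Mertk had no promoter region. Over all p300 regions the median log2 fold change from day 0 to day 4 was 1.84. A rise of p300 at Acp5 thus does not by itself mark the cell type, and the sizes of these rises were not compared.

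Every member had a site near its start, and Insig1, Srebf2, Hmgcs1, Fdft1 and Lss also had distal sites, in introns, in neighbouring genes or, at Insig1, far upstream (coordinates in mm10). The Srebf2 promoter was a listed region in all 15 tables, an intron site of Lss 11.2 kb downstream of its start in 14, and a site 34.0 kb upstream of Insig1 in 13. The sites 34.0, 33.6 and 7.2 kb upstream of Insig1 are listed as intergenic, and lie inside the RefSeq long noncoding RNA gene Gm35223 (chr5:28005942-28123915, minus strand). That gene also spans the whole of Insig1 and the sites at its start. The site 22.9 kb downstream of the Hmgcs1 start lies past the end of that gene (chr13:119690351-119708260, plus strand), in an intron of the neighbouring gene Nim1k (chr13:119710094-119755882, minus strand). It is counted for Hmgcs1 here because the tables list it so. The sites 8.5 and 7.9 kb upstream of Srebf2 lie in Ccdc134 (chr15:82127898-82142203).

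The sequences of 5 distal sites whose values are described below, and of the promoters of Hmgcs1 and Srebf2, are shown so that the letters at these sites can be read. The distal windows are 250 bases around the centre of the NCoR region on the plus strand of mm10. Capitals mark matches on either strand to AP-1 (TGANTCA), PU.1 (AGGAAGT), C/EBP (TTGCNNAA), NF-Y (CCAAT) or SREBP (TCACNCCAC) letters, and the matches to different motifs did not overlap in these windows.
Insig1 34.0 kb upstream (chr5:28037271-28037520, plus strand): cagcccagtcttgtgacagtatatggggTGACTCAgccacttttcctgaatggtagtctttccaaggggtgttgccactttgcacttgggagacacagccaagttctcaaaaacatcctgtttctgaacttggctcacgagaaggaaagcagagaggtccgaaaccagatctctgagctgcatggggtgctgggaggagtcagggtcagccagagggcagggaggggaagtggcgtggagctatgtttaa
Insig1 7.2 kb upstream (chr5:28064106-28064355, plus strand): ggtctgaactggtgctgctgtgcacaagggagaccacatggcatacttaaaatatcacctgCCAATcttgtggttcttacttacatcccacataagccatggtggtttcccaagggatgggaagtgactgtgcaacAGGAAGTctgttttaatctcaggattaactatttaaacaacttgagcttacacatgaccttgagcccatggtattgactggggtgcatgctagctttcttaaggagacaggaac
Hmgcs1 22.9 kb downstream, in Nim1k (chr13:119713123-119713372, plus strand): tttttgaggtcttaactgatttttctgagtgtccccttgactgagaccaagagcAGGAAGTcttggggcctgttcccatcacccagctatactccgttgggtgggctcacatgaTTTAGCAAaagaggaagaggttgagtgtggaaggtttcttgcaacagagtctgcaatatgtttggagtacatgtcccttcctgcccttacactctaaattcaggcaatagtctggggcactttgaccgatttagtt
Fdft1 20.1 kb downstream, in an Fdft1 intron (chr14:63157616-63157865, plus strand): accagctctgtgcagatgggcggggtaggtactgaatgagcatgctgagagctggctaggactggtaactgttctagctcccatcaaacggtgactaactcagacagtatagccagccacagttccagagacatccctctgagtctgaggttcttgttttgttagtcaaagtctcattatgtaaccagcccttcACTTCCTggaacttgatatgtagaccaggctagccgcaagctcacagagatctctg
Lss 11.2 kb downstream, in an Lss intron (chr10:76542702-76542951, plus strand): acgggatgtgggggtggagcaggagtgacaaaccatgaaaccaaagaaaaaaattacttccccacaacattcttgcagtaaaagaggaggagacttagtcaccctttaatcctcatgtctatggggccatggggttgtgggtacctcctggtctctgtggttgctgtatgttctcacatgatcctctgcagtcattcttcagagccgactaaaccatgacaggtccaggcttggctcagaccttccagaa
Hmgcs1 promoter, the 250 bases before the start (chr13:119690101-119690350, plus strand): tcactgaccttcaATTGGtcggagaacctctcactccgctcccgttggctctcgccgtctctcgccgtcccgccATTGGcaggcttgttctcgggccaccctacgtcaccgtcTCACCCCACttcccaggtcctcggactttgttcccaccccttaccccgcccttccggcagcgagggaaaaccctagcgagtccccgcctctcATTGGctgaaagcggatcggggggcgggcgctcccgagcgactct
Srebf2 promoter, the 250 bases before the start (chr15:82147019-82147268, plus strand): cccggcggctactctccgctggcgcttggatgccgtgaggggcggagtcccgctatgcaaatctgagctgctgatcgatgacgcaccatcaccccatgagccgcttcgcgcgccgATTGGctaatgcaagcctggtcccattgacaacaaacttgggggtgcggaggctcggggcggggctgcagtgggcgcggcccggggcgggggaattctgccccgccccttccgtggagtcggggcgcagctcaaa

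The window 34.0 kb upstream of Insig1 held the only AP-1 match among the 13 member windows of NCoR, against 22.7% of 57565 NCoR windows. PU.1 letters were present in 4 of the 13 (26.6% of all NCoR windows), among them those 7.2 kb upstream of Insig1, at Hmgcs1 22.9 kb and at Fdft1 20.1 kb. C/EBP letters were present in 1, at Hmgcs1 22.9 kb (18.0% of all). The Lss window held none of the 5. The promoters of RefSeq were found for 6 of the 8 genes and equalled the mm10 genome, and those of Sqle and Fdft1 were not among them. NF-Y letters were present in 6 of 6 promoters (33.8% of 32851 promoters) and in 7 of the 13 NCoR windows (26.6%). The SREBP letters were present in the Hmgcs1 promoter alone among the 6 (1.05% of all promoters). A match describes letters in a window and does not show that a factor binds there. Only exact letters were counted, so that a window without a match may still hold a variant of the motif.

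Regions were tested with edgeR over each whole table, and a region was called when its change was more than 2-fold with a Benjamini-Hochberg adjusted p-value under 0.05. Scaled by library totals, KLA lowered NCoR at the distal sites of Insig1 and Hmgcs1. The called rises of p65 were at promoters and introns of Srebf2 and Hmgcs1 and in introns of Insig1 and Fdft1. Over all p65 regions, 29981 were called higher and 2859 lower. Of 12 NCoR regions 5 were called, all lower, where 40.1% of all NCoR regions were called. Their median log2 fold change was -0.27 beside 0.10 over all NCoR regions. Of 13 HDAC3 regions 5 fell and 2 rose (38.8% of all called), and of 13 PU.1 regions 4 fell and none rose (26.3% of all called). Falls were also the more common over all PU.1 regions, with 11020 called lower and 2296 higher. The median of PU.1 at the members was -0.18 beside -0.41 over all its regions. Of 15 p300 regions 2 fell and 1 rose (54.9% of all called), with a median of -0.23 beside 0.65. All 7 called p65 regions of 13 rose (62.4% of all called), with a median of 1.25 beside 1.46. TMM scaling, which takes out a shift common to all regions, moved the log2 fold changes of a table by -1.61 to 1.16, and by more than 0.1 in 22 of the 25 comparisons. With it 5 p300 regions were called, all lower, 4 p65 regions, of which 1 was higher and 3 lower, and 2 PU.1 regions, 1 in each direction. PGC1β fell in 1 region of 11 and rose in 1 (22.8% of all called), ERK1 fell in 1 of 8 (12.9%), and no Fosl2 region of 7 was called by edgeR (15.6%), where 1 had an unadjusted p under 0.05 and TMM scaling and DESeq2 each called 1. The members' share of calls was above that of all regions for HDAC3, below it for p300, and nearer to it for the others with calls. No share was read for Fosl2, whose 7 log2 fold changes had SEs of 0.78 to 1.12. The counts depended on single libraries: NCoR calls were 3 without KLA replicate 2, HDAC3 calls 2 without either Veh replicate, and p300 calls 1 without KLA replicate 1. The p65 calls were 3 and 1 without KLA replicates 1 and 2, Fosl2 calls 2 without either KLA replicate, and ERK1 calls 0 without either KLA replicate. Calls of PGC1β were 0 and 1 without Veh replicates 1 and 2, and 4 and 1 without KLA replicates 1 and 2. A sum of tags over many cells cannot tell fewer cells carrying a factor from less of it per cell.

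**Figure D1:**
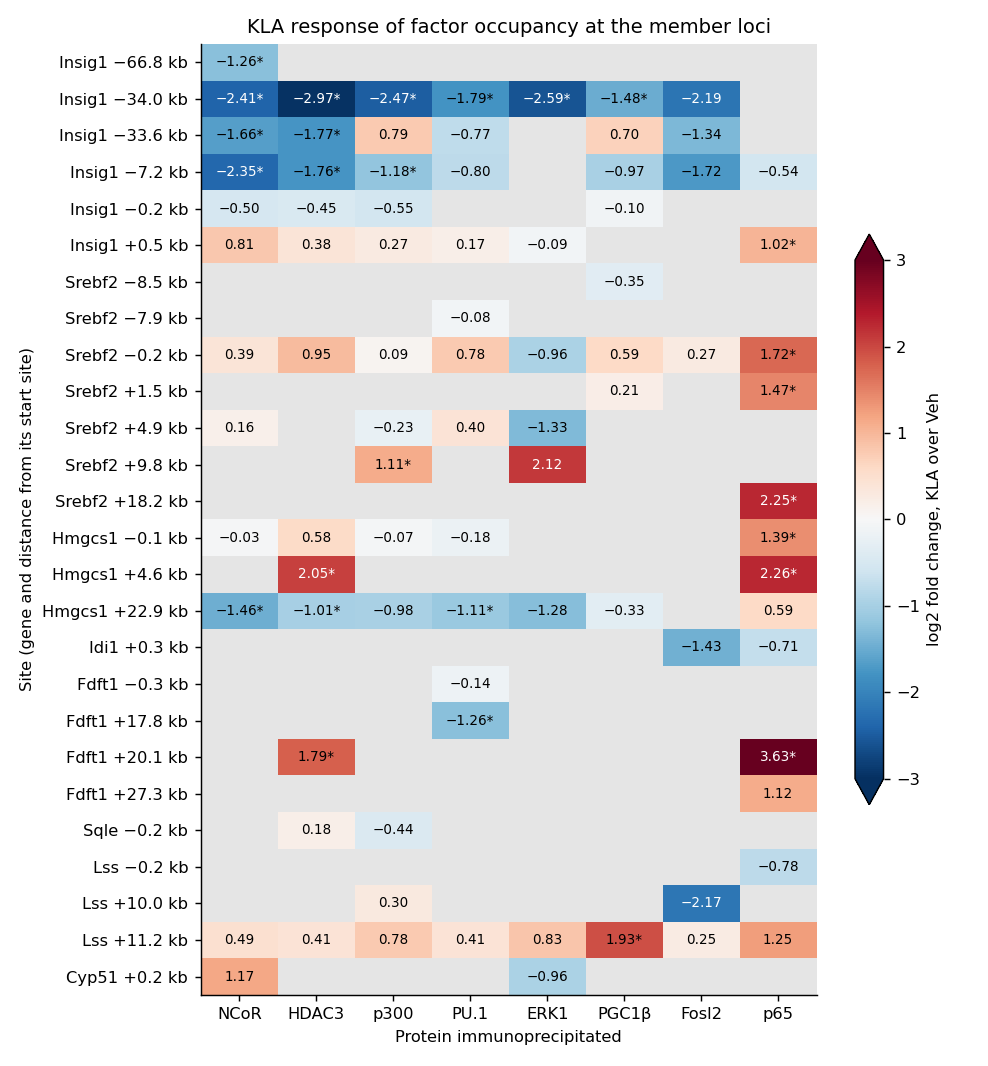
Log2 fold change of tags (KLA over Veh) in WT BMDMs for 8 proteins (columns) at 26 sites (rows, gene and distance from its start site), with red for higher, blue for lower, grey where no region was listed, and an asterisk where the change was called. The row 34.0 kb upstream of Insig1 is blue in all 7 of its columns, from -1.48 (PGC1β) to -2.97 (HDAC3), and the called p65 changes are all red.

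Insig1 had the most regions of any member, 65 in 14 tables at 9 sites, and the site 34.0 kb upstream lost tags of every protein listed there. NCoR stood at 317.8 and 308.4 with Veh and at 59.9 and 58.1 with KLA, groups far apart (log2 fold change -2.41, SE 0.20, adjusted p = 4.28e-05, edgeR). HDAC3 stood at 296.8 and 273.2 with Veh and at 47.5 and 19.3 with KLA (-2.97, SE 0.40, adjusted p = 3.51e-12, edgeR). For p300 the values were 125.4 and 105.8 with Veh and 17.4 and 24.3 with KLA (-2.47, SE 0.26, adjusted p = 6.90e-07, edgeR). The corepressor, its deacetylase partner and the acetyltransferase thus all fell at this site, and for none of these did Veh and KLA libraries overlap. PU.1 stood at 106.5 and 99.6 with Veh and at 37.9 and 21.7 with KLA (-1.79, SE 0.19, adjusted p = 2.71e-16, edgeR). ERK1 stood at 55.1 and 40.5 with Veh and at 7.38 and 8.17 with KLA (-2.59, SE 0.62, adjusted p = 0.021, edgeR), and without either KLA library the adjusted p was 0.0748 to 0.0808. PGC1β, at 21.2 and 29.8 with Veh and 13.1 and 6.29 with KLA, was called (-1.48, SE 0.52, adjusted p = 0.0461, edgeR), but not without Veh replicate 1, Veh replicate 2 or KLA replicate 2 (adjusted p of 0.105 to 0.391). Fosl2 stood at 93.1 and 71.3 with Veh and at 6.98 and 26.9 with KLA and was not called (-2.19, SE 0.89, adjusted p = 0.076, edgeR), though it was under TMM scaling and DESeq2. No p65 region was listed at this site.

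**Figure D2:**
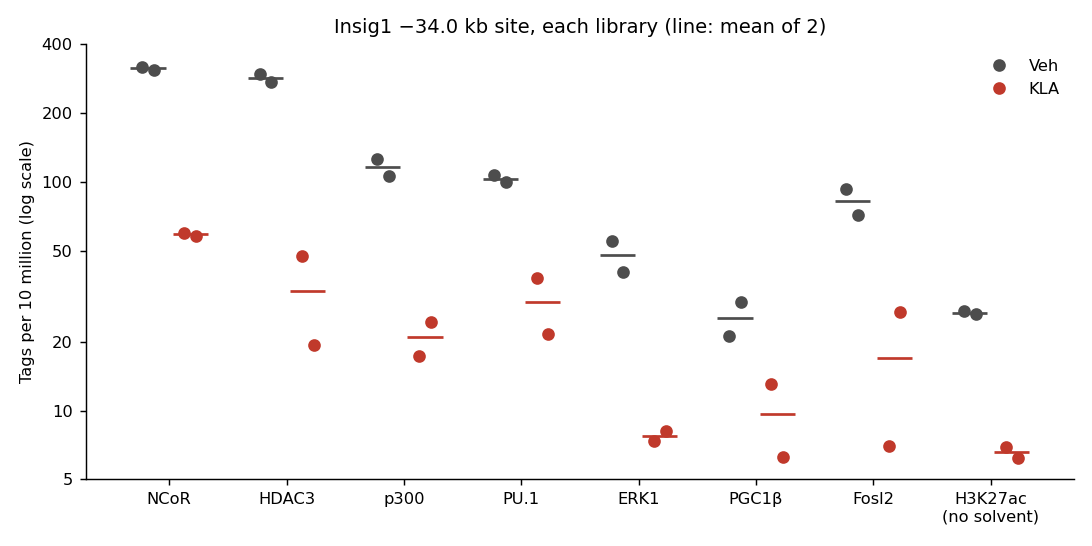
Tags per 10 M (log scale) at the site 34.0 kb upstream of Insig1 in each Veh (grey) and KLA (red) library of WT BMDMs for 7 proteins and of NCoR flox/flox BMDMs for H3K27ac, with lines at the mean of 2 libraries. In every column both KLA libraries lie below both Veh libraries.

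At the adjacent site 33.6 kb upstream of Insig1 the corepressors fell and p300 did not. NCoR fell there from 184.0 and 161.2 to 67.2 and 42.9 (-1.66, SE 0.27, adjusted p = 0.000863, edgeR), and HDAC3 from 178.2 and 154.8 to 52.2 and 43.9 (-1.77, SE 0.38, adjusted p = 2.06e-05, edgeR). The HDAC3 call was lost without Veh replicate 1 (adjusted p = 0.0869, edgeR). In contrast, p300 stood at 25.7 and 17.1 with Veh and 42.5 and 31.9 with KLA, groups that did not overlap and a change that was not called (0.79, SE 0.37, adjusted p = 0.0673, edgeR). At 7.2 kb upstream, NCoR fell from 98.0 and 161.2 to 26.7 and 24.2 (-2.35, SE 0.33, adjusted p = 0.000409, edgeR). HDAC3 fell there from 156.4 and 142.7 to 29.3 and 65 (-1.76, SE 0.39, adjusted p = 3.67e-05, edgeR), a call lost without either Veh library. The p300 tags at this site went from 41.4 and 57.2 to 16.9 and 26.5 (-1.18, SE 0.35, adjusted p = 0.00698, edgeR), a call lost without Veh replicate 2 or KLA replicate 1. NCoR also fell 66.8 kb upstream, from 34.7 and 57.7 to 21.9 and 16.6 (-1.26, SE 0.43, adjusted p = 0.0338, edgeR), and only the fit without Veh replicate 1 kept that call among the 4 that left out a library.

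Nearer the start of Insig1 the pattern was another. In the intron 0.5 kb downstream of the start, NCoR stood at 56.2 and 87.1 with Veh and at 129.6 and 121.7 with KLA, a rise under 2-fold (0.81, SE 0.27, adjusted p = 0.0298, edgeR). There p65 went from 21.9 and 59.7 to 70.8 and 94.4 (1.02, SE 0.42, adjusted p = 0.0489, edgeR), a call that was lost without Veh replicate 1 or either KLA library, and whose sign turned under TMM scaling (-0.18) and DESeq2 (-0.14). At the promoter 0.2 kb upstream, none of NCoR, HDAC3, p300 and PGC1β was called, with log2 fold changes of -0.55 to -0.10, and TMM scaling and DESeq2 called the fall of p300 (-1.07 with TMM).

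At Srebf2, the gene of SREBP2, the called changes were rises of p65 and p300. At its promoter p65 stood at 33.3 and 38.2 with Veh and at 103.5 and 132.7 with KLA (1.72, SE 0.29, adjusted p = 0.000449, edgeR), a call kept without any library in turn but not under TMM scaling (0.50) or DESeq2 (0.53). In its introns p65 rose 18.2 kb downstream, from 8.76 and 8.39 to 38.1 and 44.5 (2.25, SE 0.48, adjusted p = 0.00183, edgeR), and 1.5 kb downstream, from 10.5 and 29.8 to 48.1 and 63.6 (1.47, SE 0.48, adjusted p = 0.018, edgeR). Without KLA replicate 2 neither call was made, and the call at 1.5 kb was also lost without Veh replicate 1 or KLA replicate 1. None of the 3 Srebf2 calls of p65 was made under TMM scaling. In the intron 9.8 kb downstream p300 rose from 9.40 and 12.5 to 24 and 23.2 (1.11, SE 0.45, adjusted p = 0.0395, edgeR), a call that only the fit without Veh replicate 2 kept among those leaving out a library, and that TMM scaling and DESeq2 did not make. PU.1 at the promoter stood at 40.3 and 37.3 with Veh and at 56.9 and 77.1 with KLA, a rise under 2-fold (0.78, SE 0.19, adjusted p = 0.000167, edgeR). NCoR at the promoter, at 74.1 and 65.9 with Veh and 92.3 and 91.3 with KLA, was not called.

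Hmgcs1 encodes HMG-CoA synthase, an early enzyme of the mevalonate pathway. At the site 22.9 kb downstream NCoR fell from 109.9 and 96.5 to 42.9 and 32.5 (-1.46, SE 0.29, adjusted p = 0.00269, edgeR), a call lost without KLA replicate 2 (-1.26, adjusted p = 0.0777). PU.1 was high there and fell from 246.2 and 259.5 to 116.5 and 117.3 (-1.11, SE 0.10, adjusted p = 1.76e-19, edgeR), but by under 2-fold under TMM scaling (-0.69) and DESeq2 (-0.70), which set the KLA libraries of PU.1 higher. Both HDAC3 regions of the site fell, the stronger from 135.3 and 132.2 to 52.7 and 84.3 (-1.01, SE 0.37, adjusted p = 0.019, edgeR), and both calls were lost without Veh replicate 1, Veh replicate 2 or KLA replicate 1. For p300 the fall from 52.0 and 42.7 to 20.0 and 28.1 stayed under 2-fold (-0.98, SE 0.33, adjusted p = 0.0156, edgeR). A weaker p300 region of the site went from 13.8 and 20.4 to 3.07 and 10.8, groups that did not overlap (-1.30, SE 0.58, adjusted p = 0.0576, edgeR). Neither was called by edgeR, and TMM scaling and DESeq2 called both. In the Hmgcs1 intron 4.6 kb downstream, HDAC3 rose from 8.73 and 5.53 to 27.5 and 31.6 (2.05, SE 0.65, adjusted p = 0.00594, edgeR). There p65 rose from 0 and 8.39 to 15.4 and 24.6 (2.26, SE 0.86, adjusted p = 0.0367, edgeR). The HDAC3 call was lost without either Veh library and the p65 call without either KLA library. At the promoter, p65 rose from 27.1 and 41.0 to 79.5 and 98.5 (1.39, SE 0.33, adjusted p = 0.00368, edgeR), a call lost without KLA replicate 2 and under TMM scaling (0.17) and DESeq2 (0.20). The promoter regions of NCoR, HDAC3, p300 and PU.1 were not called, with log2 fold changes of -0.18 to 0.58.

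Fdft1 encodes squalene synthase, and its called changes lay in introns. At 20.1 kb downstream p65 stood at 7 and 0 with Veh and at 45.4 and 45.8 with KLA (3.63, SE 0.75, adjusted p = 0.00149, edgeR), a call that TMM scaling (2.41) and DESeq2 also made, and that was lost without either KLA library (adjusted p of 0.0525 to 0.0528). HDAC3 rose at this site from 16.7 and 7.19 to 35.8 and 47.4 (1.79, SE 0.55, adjusted p = 0.00399, edgeR), a call lost without Veh replicate 2. In the experiment with DMSO, PGC1β rose there from 8.12 and 0 to 53.3 and 41.7 (3.29, SE 0.90, adjusted p = 0.0121, edgeR), the only one of 16 PGC1β regions called (17.6% of all called). TMM scaling called another region instead, which fell. The Fdft1 region was not called under TMM scaling or without Veh replicate 2 or KLA replicate 1 (adjusted p of 0.0661 to 0.0805), so that the count was 0 without either of these, and 2 without KLA replicate 2. NCoR was counted at this site in the table with ERKi, at 0 and 10.6 with Veh and 27.5 and 15.2 with KLA. PU.1 fell 17.8 kb downstream from 54.8 and 65.4 to 28.1 and 21.7 (-1.26, SE 0.22, adjusted p = 1.52e-07, edgeR), which TMM scaling (-0.85) and DESeq2 did not call.

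Lss encodes lanosterol synthase. In its intron 11.2 kb downstream, PGC1β went from 9.99 and 13.9 to 37.1 and 53.8 with KLA (1.93, SE 0.42, adjusted p = 0.00257, edgeR), a call lost without Veh replicate 1 (adjusted p = 0.0773). In the experiment with DMSO, PGC1β at the same site stood at 29.2 and 27.7 with Veh and at 41.4 and 20.8 with KLA, groups that overlapped. For p300 the rise from 46.4 and 46.0 to 74.2 and 84.3 was under 2-fold (0.78, SE 0.24, adjusted p = 0.00889, edgeR). The other 6 proteins listed there were not called, with log2 fold changes of 0.25 (Fosl2) to 1.25 (p65). Idi1 (isopentenyl diphosphate isomerase), Sqle (squalene epoxidase) and Cyp51 (lanosterol 14α-demethylase) had factor regions near their start sites alone, and none of these was called with KLA. At Sqle, p300 stood at 62.7 and 32.9 with Veh and at 32.2 and 38.4 with KLA. At Cyp51, NCoR stood at 13.1 and 3.53 with Veh and at 15.4 and 22.1 with KLA. At Idi1, p65 stood at 28.9 and 23.3 with Veh and at 16 and 15.7 with KLA, and TMM scaling and DESeq2 called that fall (-1.94 with TMM).

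H3K27ac near the start sites of these genes and at the distal sites of Insig1 and Hmgcs1 moved in opposite directions with KLA in the DMSO set. The counts are in windows of 1000 bp, and the windows at Idi1, at Hmgcs1 22.9 kb, at the start of Insig1 and 33.6 to 34.0 kb upstream of it overlap their neighbours and share tags. Of the 10 windows within 2 kb of a start site, 5 were called, all higher, and the log2 fold changes of all 10 were positive, where 20% of all such windows were called. Their median was 1.08 beside -0.17 over all such windows. Of the 6 tested distal windows, 5 were called, all lower, and 0 were positive (44.4% of all distal windows called), with a median of -1.33 beside -0.69. The called distal windows were at Hmgcs1 22.9 kb and upstream of Insig1 alone, and as windows there overlap, they are not separate sites. In all, 10 of 16 windows were called (34.8% of all). Under TMM scaling 11 of 16 were called, 9 higher and 2 lower, and all 10 windows near start sites stayed positive.

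At the Sqle promoter H3K27ac stood at 29.1 and 26.2 with DMSO and Veh and at 76.4 and 72.4 with DMSO and KLA (1.43, SE 0.29, adjusted p = 3.16e-06, edgeR). The window at the start of Idi1 went from 57.3 and 79.4 to 204.6 and 175.0 (1.48, SE 0.23, adjusted p = 2.44e-09, edgeR), and its overlapping neighbour was also called. Srebf2 promoter acetylation went from 115.5 and 108.1 to 274.6 and 264.2 (1.27, SE 0.22, adjusted p = 2.81e-08, edgeR). The Cyp51 promoter went from 69.8 and 73.3 to 198.2 and 138.8 (1.24, SE 0.24, adjusted p = 6.69e-07, edgeR), a rise that came under 2-fold without KLA replicate 1 (0.96). The remaining promoter windows, of Insig1, Fdft1, Hmgcs1 and Lss, were not called, with log2 fold changes of 0.31 (Hmgcs1) to 0.91 (Fdft1). Among the distal windows, that at Hmgcs1 22.9 kb fell from 361.3 and 335.8 to 57 and 83.3 (-2.33, SE 0.22, adjusted p = 1.10e-23, edgeR). The stronger window 34.0 kb upstream of Insig1 fell from 260.0 and 229.4 to 101.7 and 98.5 (-1.29, SE 0.22, adjusted p = 1.59e-08, edgeR), and came under 2-fold with TMM scaling (-0.87). The Lss intron window 11.2 kb downstream, at 58.1 and 66.3 with Veh and 44.7 and 38.7 with KLA, was not called.

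With RGFP966 and KLA, compared with the same DMSO and KLA libraries, the directions were the reverse. Of the 10 windows near start sites 7 were called, all lower, and 0 of 10 were positive (29.8% of all such windows called), with a median of -1.11 beside -0.57. Of the 6 distal windows 4 were called, all higher, and 6 of 6 were positive (40.8% of all distal windows called), with a median of 1.14 beside 0.85. These calls were again at Hmgcs1 22.9 kb and upstream of Insig1 alone, where windows overlap. In all, 11 of 16 were called (36.5% of all), and under TMM scaling 12, of which 2 were higher and 10 lower. The DMSO and KLA libraries enter both comparisons, so that the opposite signs are not independent of each other. At the Insig1 promoter the 3 groups, in the order DMSO and Veh, DMSO and KLA, RGFP966 and KLA, stood at 229.2 and 218.9, at 418.3 and 342.5, and at 165.9 and 128.7 (RGFP966 effect -1.37, SE 0.20, adjusted p = 3.27e-10, edgeR). At the start of Idi1 the RGFP966 libraries stood at 74.4 and 72.5 (-1.37, SE 0.23, adjusted p = 2.08e-08, edgeR), and at Cyp51 at 80.3 and 52.8 (-1.34, SE 0.23, adjusted p = 6.19e-08, edgeR). The calls at Fdft1 (-1.07) and Srebf2 (-1.02) came under 2-fold when a library was left out, RGFP966 replicate 2 for both and KLA replicate 1 for Srebf2 (-0.99 to -0.92). Upstream of Insig1, the stronger window at 34.0 kb stood at 287.0 and 226.9 with RGFP966 (1.36, SE 0.21, adjusted p = 3.13e-09, edgeR), so that the RGFP966 and Veh libraries overlapped. The call 33.6 kb upstream (1.22) was lost under TMM scaling (0.88) and without RGFP966 replicate 1 (0.98). At Hmgcs1 22.9 kb the first window stood at 144.8 and 130.1 with RGFP966, under 2-fold (0.98), and the overlapping one was called (1.05, adjusted p = 3.14e-05, edgeR), but not without KLA replicate 1 or RGFP966 replicate 1. Both RGFP966 libraries there remained below both Veh libraries.

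**Figure D3:**
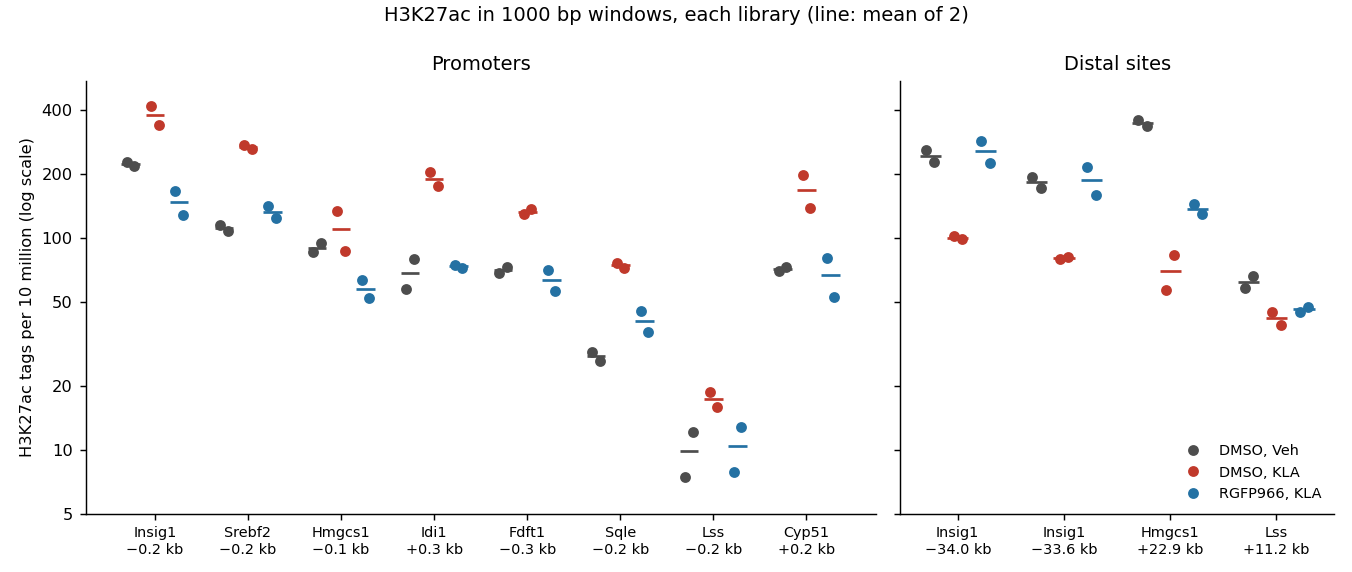
H3K27ac tags per 10 M (log scale) in windows of 1000 bp at promoters (left) and distal sites (right) in each library given DMSO and Veh (grey), DMSO and KLA (red) or RGFP966 and KLA (blue), with lines at the mean of 2. At all promoters but that of Hmgcs1 both red points lie above all others, and at the distal sites of Insig1 both lie below all others.

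In the NCoR flox/flox set the regions are narrower and hold fewer tags, and 13 of the 17 listed passed the minimum. The Ncor1 promoter, whose acetylation does not test a deletion within the gene, stood at 44.8 to 51.7 in the 4 WT libraries and at 54.7 to 70.2 in the 4 NKO libraries. In WT cells KLA called 4 of 13 regions, 2 higher and 2 lower (10.2% of all called), and in NKO cells 2 of 13, both lower (10.7%). At the site 34.0 kb upstream of Insig1, WT libraries stood at 27.1 and 26.5 with Veh and at 6.92 and 6.20 with KLA (-2.01, SE 0.46, adjusted p = 0.00119, edgeR). NKO libraries stood there at 31.7 and 26.1 with Veh and at 15.9 and 16.7 with KLA, which was not called (-0.82, SE 0.40, adjusted p = 0.179, edgeR). The difference between these responses did not pass the test (interaction 1.19, SE 0.61, adjusted p = 0.373, edgeR). At 33.6 kb upstream both genotypes fell, WT from 37.2 and 24.4 to 10.7 and 12.4 (-1.40, adjusted p = 0.0189, edgeR) and NKO from 25.1 and 33.1 to 11.7 and 6.25 (-1.66, adjusted p = 0.00645, edgeR). NKO cells also fell at Hmgcs1 22.9 kb, from 25.1 and 30.2 to 13.8 and 2.08 (-1.72, SE 0.50, adjusted p = 0.0138, edgeR). The WT rises were the 2 regions at the start of Cyp51, from 18.9 and 18.3 to 43.4 and 31.0 (1.00, adjusted p = 0.0291) and from 11.3 and 18.8 to 32.7 and 31.7 (1.07, adjusted p = 0.0408, both edgeR). Neither was called under TMM scaling, so that 2 calls were left, both lower. Without WT Veh replicate 1 there was 1 call in WT, and without WT Veh replicate 2, WT KLA replicate 1 or WT KLA replicate 2 there were 2 in place of 4. Without NKO Veh replicate 2 or NKO KLA replicate 2 the NKO count was 0.

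Between genotypes no region of the 13 was called by edgeR, with Veh (1% of all called), with KLA (0.789%) or for the interaction (0.697%). Unadjusted p-values under 0.05 numbered 6, 1 and 0, and TMM scaling and DESeq2 called 0, but without the filter on low tags 1 region was called with Veh, at the start of Cyp51 (adjusted p = 0.0401, edgeR). With Veh, 12 of the 13 log2 fold changes of NKO over WT were positive, with a median of 0.76 beside 0.30 over all regions. Under TMM scaling the median was 0.46 beside 0.005. The 13 include neighbouring regions at the starts of Cyp51, Idi1 and Insig1, so that their signs are not independent. The promoter region of Cyp51 stood highest among them by its p-value, at 18.9 and 18.3 in WT and 39.8 and 42.4 in NKO, groups that did not overlap (1.14, SE 0.32, adjusted p = 0.0536, edgeR).

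In the PGC1b flox/flox set KLA called 2 of 16 windows without Cre (30.8% of all called) and 3 of 16 with LysMCre (36.7%), all lower. The windows of the Ppargc1b promoter stood at 51.6 and 49.9 (Veh) and 25.1 and 25.4 (KLA) without Cre, and at 39.9 and 42.4 (Veh) and 20.2 and 31.3 (KLA) with Cre, and do not test a deletion within the gene. At Hmgcs1 22.9 kb H3K27ac fell from 201.4 and 190.5 to 36.1 and 34.7 without Cre (-2.47, SE 0.18, adjusted p = 1.14e-39, edgeR) and from 202.0 and 197.7 to 30.3 and 26.7 with Cre (-2.81, SE 0.19, adjusted p = 2.77e-45, edgeR). These falls and those of the overlapping window were called in each fit that left out a library. The Lss intron window 11.2 kb downstream fell from 69.8 and 69.0 to 31.8 and 19.5 with Cre (-1.45, SE 0.25, adjusted p = 2.02e-08, edgeR), and without Cre from 103.8 and 91.4 to 45.9 and 54.0, under 2-fold (-0.97, SE 0.21, adjusted p = 1.45e-05, edgeR). In contrast with the DMSO set, the stronger window 34.0 kb upstream of Insig1 changed little, from 152.6 and 153.1 to 118.2 and 114.1 without Cre (-0.40, SE 0.15, adjusted p = 0.0141, edgeR), and the sign of this change turned under TMM scaling (0.03) and DESeq2 (0.04). No promoter window reached 2-fold. With TMM scaling 6 windows were called without Cre, 4 higher and 2 lower, and 7 with Cre, 5 higher and 2 lower. The promoters of Cyp51, Hmgcs1 and Srebf2 and the start of Idi1 then rose more than 2-fold in both, and the Lss window was no longer called (-0.83).

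Between cells with and without LysMCre edgeR called 0 of 16 windows with Veh (0.397% of all called), with KLA (7.52%) and for the interaction (5.37%). Unadjusted p-values under 0.05 numbered 7, 4 and 0, and TMM scaling and DESeq2 called 0. With KLA all 16 log2 fold changes of Cre over no Cre were negative, with a median of -0.19 beside -0.38 over all windows, and under TMM scaling their median was 0.20. The lowest was at the Lss intron window, 45.9 and 54.0 without Cre and 31.8 and 19.5 with Cre (-0.97, SE 0.26, adjusted p = 0.000642, edgeR), and without PGC1b flox KLA replicate 1 or Cre KLA replicate 1 the count of calls was 1. At the Hmgcs1 promoter the KLA libraries stood at 210.0 and 192.3 without Cre and at 142.3 and 136.8 with Cre (-0.53, SE 0.14, adjusted p = 0.00068, edgeR).

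**Figure D4:**
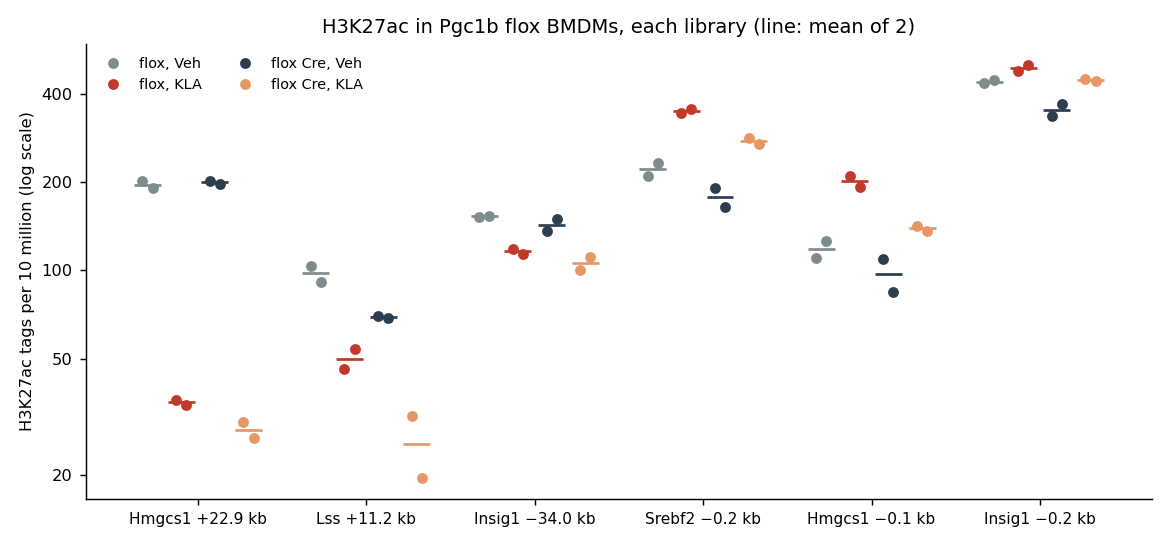
H3K27ac tags per 10 M (log scale) in windows of 1000 bp at 6 member sites in each library of PGC1b flox/flox BMDMs without Cre (grey Veh, red KLA) and with LysMCre (dark blue Veh, orange KLA), with lines at the mean of 2. At Hmgcs1 22.9 kb the KLA libraries of both genotypes lie far below the Veh libraries, and at the Lss site the KLA libraries with Cre are the lowest.

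With ERKi and KLA, NCoR was lower than with KLA alone at most of the member sites, as over the whole table. Of 13 regions 8 were called, all lower (49.2% of all called), with a median of -1.33 beside -1.20 over all NCoR regions. Libraries of this table held 15.0% to 37.9% of their tags in regions, lowest with ERKi. The ERKi libraries carry another date in their labels, so that treatment and date cannot be told apart. The KLA libraries beside them are not labelled with DMSO, as those of PGC1β are, and a solvent effect cannot be separated either. TMM scaling called 1 region, a higher one, as did DESeq2. The KLA libraries are those of the comparison with Veh. Without KLA replicate 1, 3 were called, and those at Lss, at the Insig1 promoter and 66.8 kb upstream of Insig1 had adjusted p-values of 0.0561 to 0.0601 (edgeR). The lowest was 66.8 kb upstream of Insig1, where KLA libraries stood at 21.9 and 16.6 and ERKi libraries at 4.23 and 0 (-3.11, SE 0.83, adjusted p = 0.00751, edgeR). At Hmgcs1 22.9 kb the ERKi libraries stood at 5.92 and 10.3 (-2.20, SE 0.44, adjusted p = 0.00146, edgeR), and at the Insig1 promoter at 17.8 and 10.3 (-1.91, SE 0.44, adjusted p = 0.00326, edgeR). At the Lss intron site they stood at 18.6 and 30.2 beside 92.3 and 66.4 (-1.70, SE 0.37, adjusted p = 0.00222, edgeR), and at the Srebf2 promoter at 39.7 and 35.3 beside 92.3 and 91.3 (-1.29, SE 0.30, adjusted p = 0.00315, edgeR). The site 34.0 kb upstream of Insig1 was apart from these, at 59.9 and 58.1 with KLA and 71.9 and 70.7 with ERKi (0.27, SE 0.22, adjusted p = 0.292, edgeR), and it was the region that TMM scaling called (1.44). These ERKi values remained far below the Veh libraries of 317.8 and 308.4.

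**Figure D5:**
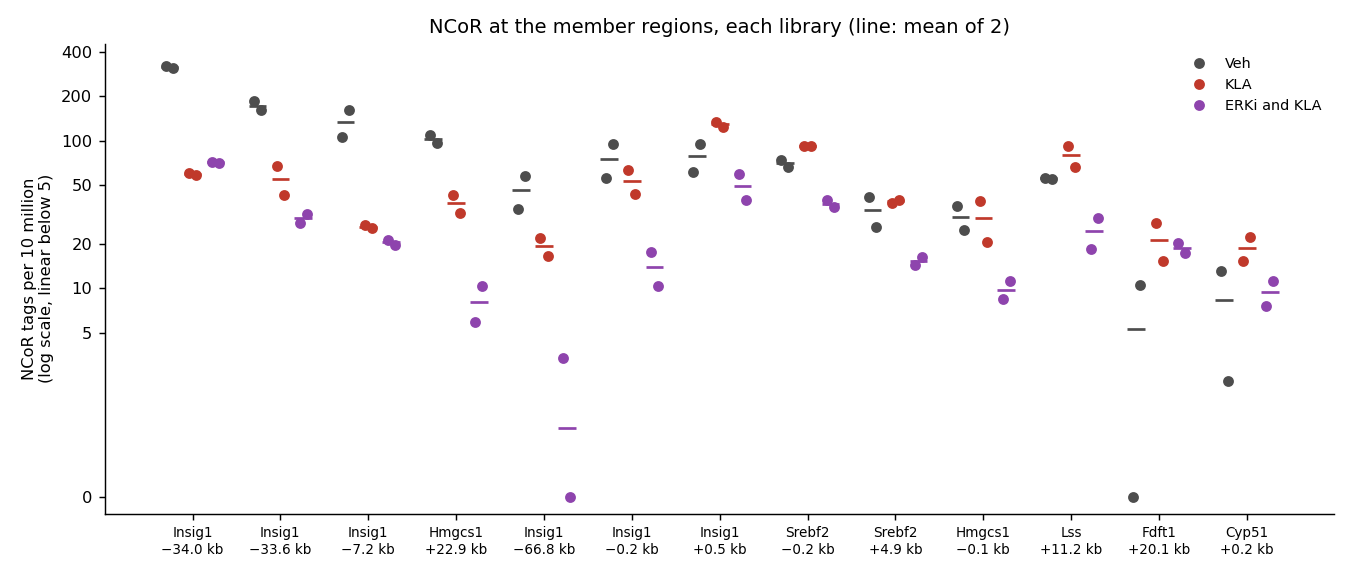
NCoR tags per 10 M (log scale, linear below 5) at 13 member regions in each library given Veh (grey), KLA (red) or ERKi and KLA (purple), with lines at the mean of 2. Both ERKi points lie below both KLA points at the sites of Srebf2 and at Lss, and above them 34.0 kb upstream of Insig1.

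PGC1β was compared with ERKi and KLA against DMSO and KLA, and no region of 16 was called by edgeR (0.286% of all called), 1 having an unadjusted p under 0.05, nor by TMM scaling or DESeq2. At the site 34.0 kb upstream of Insig1 PGC1β stood at 63.3 and 51.0 with DMSO and Veh, at 21.7 and 26.8 with DMSO and KLA, and at 65.7 and 49.1 with ERKi and KLA. The groups with KLA did not overlap, and neither the KLA effect (-1.23, SE 0.52, adjusted p = 0.101, edgeR) nor the ERKi effect (1.22, SE 0.52, adjusted p = 0.284, edgeR) was called. TMM scaling and DESeq2 called the KLA effect.

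From day 0 to day 4 of osteoclast differentiation p300 rose at 2 of 6 regions (62.5% of all called), and all 6 log2 fold changes were positive, with a median of 1.34 beside 1.84 over all regions. At the Lss intron site p300 stood at 3.52 and 0 on day 0 and at 71.4 and 57.9 on day 4 (4.68, SE 0.75, adjusted p = 0.000552, edgeR). The site 34.0 kb upstream of Insig1, where p300 fell with KLA in BMDMs, went from 7.91 and 6.39 to 57.7 and 34.0 (2.62, SE 0.65, adjusted p = 0.00468, edgeR). The Lss call was kept by TMM scaling (3.08) but not by DESeq2, which called 0 of the 6, and the Insig1 call was kept by neither and was lost without day 4 replicate 1. Without day 0 replicate 2 the count was 4. The ERK1 library of day 4 titled replicate 2 is described in its label as replicate 3 with a later date than the other ERK1 libraries of this experiment. ERK1 was counted at 2 regions, neither called by edgeR, TMM scaling or DESeq2 (2.35% of all called), both with an unadjusted p under 0.05. At the Srebf2 promoter it stood at 5.17 and 21 on day 0 and at 57.6 and 25.1 on day 4, and without day 0 replicate 2 it gave the only call in the comparison.

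A list of 26 other genes of synthesis, sensing, uptake and transport of cholesterol was followed in the same way. With KLA, 30 NCoR regions of 94 rose and 9 fell (41.5% called, 40.1% of all regions), and 27 HDAC3 regions of 77 rose and 3 fell (39.0% called, 38.8% of all). For p300, 36 regions of 95 rose and 9 fell (47.4% called, 54.9% of all), and for p65, 48 of 73 rose and 5 fell (72.6% called, 62.4% of all). The shares of NCoR and HDAC3 were thus at the background. Of the 30 NCoR rises, 20 were at the 6 genes of sensing and processing (22 of 38 regions called, 57.9%). The genes of uptake and transport had 5 rises and 5 falls (10 of 36 called, 27.8%). Ch25h, counted under sensing, had 225 regions over the 15 tables, the most of the 26 genes, so that it weighs heavily in these counts. For each of the 8 proteins the rise with the lowest p-value lay near Ch25h, which encodes cholesterol 25-hydroxylase, the enzyme of an oxysterol that restrains SREBP processing. At a site 24 kb downstream of its start NCoR was at 0 in both Veh libraries and at 138.5 and 139.0 with KLA, and p300 rose there from 5.64 and 3.94 to 183.6 and 174.6 (5.20, SE 0.29, adjusted p = 6.25e-10, edgeR). The fall of NCoR with the lowest p-value was 54.4 kb upstream of Sc5d, a sterol desaturase gene, from 163.7 and 257.8 to 36.4 and 43.6 (-2.39, SE 0.28, adjusted p = 0.000173, edgeR). In the DMSO set 11 H3K27ac windows of 45 rose with KLA and 9 fell (44.4% called, 34.8% of all windows), and with RGFP966 5 rose and 12 fell (37.8% called, 36.5% of all). Of 18 windows at genes of enzymes, 8 fell with RGFP966 and 0 rose (44.4% called, 36.5% of all). Of 14 at genes of sensing and processing, 4 rose and 1 fell (35.7% called). Over all windows near start sites, RGFP966 lowered 2284 and raised 645, and over all distal windows it lowered 104 and raised 6104. The windows of this list were not split by distance, so that gene class and distance cannot be told apart. Near Msmo1, a sterol C4-methyl oxidase, H3K27ac fell with KLA in WT, from 49.2 and 43.8 to 22 and 11.7 (-1.45, adjusted p = 0.00334), and in NKO, from 66.4 and 47.6 to 16.5 and 8.33 (-2.15, adjusted p = 3.17e-05, both edgeR). Near Npc1, which moves cholesterol out of lysosomes, a window stood at 371.7 and 424.3 with KLA without PGC1b Cre and at 132.2 and 155.6 with Cre (-1.46, SE 0.10, adjusted p = 2.04e-46, edgeR).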

How the data were processed

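Per the study's methods and the labels, the authors aligned single-end reads to mm10 with Bowtie2 and called factor peaks with HOMER. They deposited raw tag counts per region and library. The methods give regions of open chromatin or factor peaks as those over which H3K27ac was counted. Versions of these programs were not given in the sources used here. Of the regions of the 8 genes, 180 of 180 gave distances to mm10 start sites within 10 bp of those listed.

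Counts were scaled by the library totals in the file headers (tags per 10 M) and tested two-sided by quasi-likelihood in edgeR 4.0.16, 1 fit per table, 25 comparisons, after a filter (4 tags for factors, 16 for H3K27ac, in at least 1 library), with p-values adjusted over the whole table. The SE is the size of the log2 fold change over the square root of F. Fits were tested on simulated data. Changes set there were recovered most often for PU.1 and least often for Fosl2 and ERK1. Fewer regions were changed there than were called for Fosl2 or ERK1, so that this recovery does not measure what could be called here. An absent call for Fosl2 or ERK1 is not read as an absent change.

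The genes, lists and tests were chosen with earlier results of these data known. Named by rule were, per gene and table, the called regions, the strongest region and the strongest within 2 kb of the start, and of other pathway genes the lowest p among calls in either direction. Other regions were named after their values were seen. Some results of the list of other genes are not reported here. Alternatives were TMM, DESeq2 1.42.0, no filter, a replicate block and each library left out. Deviations of replicates with the same number were not correlated (31 correlations, -0.027 to 0.026), so samples were treated as unpaired.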

Additional observations from a re-analysis of the deposited data

Results flagged for a closer look

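PGC1β at the site 8.5 kb upstream of Srebf2, in Ccdc134, had KLA effects of opposite sign in the experiments without and with DMSO. Without solvent it stood at 36.4 and 32.5 with Veh and at 20.8 and 32.0 with KLA (-0.35), and with DMSO at 29.2 and 18.9 with Veh and at 53.3 and 78.9 with KLA (1.43). Neither change was called, and the difference was not tested. Both KLA libraries were below both Veh libraries without solvent, though 32.0 lay close to 32.5, and above them with DMSO. The experiments carry different dates in their labels, so that solvent and date cannot be told apart.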

How the results depend on the processing

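Of 90 values of single regions, DESeq2 left 55 and TMM scaling 56 with the same direction and call. TMM scaling and DESeq2 reversed p65 in the Insig1 intron (-0.18 and -0.14) and H3K27ac 34.0 kb upstream of Insig1 with KLA in PGC1b flox/flox cells without Cre (0.034 and 0.041). Counts called under TMM scaling and DESeq2 were 5 and 5 for p300, 4 and 4 for p65, 1 and 1 for Fosl2, 2 and 2 for PU.1, 1 and 1 for NCoR with ERKi, 1 and 0 for p300 on day 4, 2 and 2 for H3K27ac in WT, 6 and 6 in PGC1b flox/flox cells and 7 and 7 with LysMCre. DESeq2 called 2 for PGC1β with DMSO and 1 for H3K27ac in NKO, and without a filter 1 was called for NKO over WT with Veh. The cause was not tested. Leaving out each library gave 3 to 6 calls for NCoR, 2 to 7 for HDAC3, 0 to 4 for PGC1β, 1 to 4 for p300, 0 to 1 for ERK1, 1 to 10 for p65, 0 to 2 for Fosl2, 0 to 2 for PGC1β with DMSO, 3 to 8 for NCoR with ERKi, 1 to 4 for p300 and 0 to 1 for ERK1 on day 4, 1 to 2 for H3K27ac in WT, 0 to 2 in NKO, and 0 to 1 for LysMCre with KLA. A lone library in a group was taken to vary like the others. No leave-one-out fit reversed a value, 73 of 364 ended a call, and with 2 libraries a group few tags limit what can be called.

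With the replicate number as a block, 85 of the 90 values kept their call. Calls were lost at both HDAC3 regions of Hmgcs1 22.9 kb (-1.02 and -1.07), for p300 at Srebf2 9.8 kb (1.12), p65 at Hmgcs1 4.6 kb (2.69) and H3K27ac at the start of Cyp51 in WT. The labels share only numbers between groups.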
